A study of Mus musculus with 11 samples.

Results

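The enzymes that release arachidonate and turn it into eicosanoids were measured as mRNA in the hearts of 11 male mice. They were taken as 10 genes, Pla2g4a, Ptgs1, Ptgs2, Ptges, Ptges2, Ptgis, Ptgds, Alox5ap, Ltc4s and Alox15, each found by its Ensembl identifier among the 22608 genes of the count table. All 10 were in the table, and 6 of them (Pla2g4a, Ptgs1, Ptges2, Ptgis, Ptgds and Alox5ap) were abundant enough to be tested, with a mean of at least 1 as log2 CPM, where CPM is the count of a gene divided by the effective total of the mouse (its total count times its TMM scaling factor) and scaled up to 1000000 counts. WT mice had an intact genome on the C57BL/6J background, and CD (complete deletion) mice, their littermates, lacked 1 copy of the mouse interval on chromosome 5 that matches the Williams-Beuren syndrome critical region. The deletion is carried by all cells of the mouse from conception, so an effect of the heart cannot be told apart from one of other organs. Mice were 8 to 16 weeks old and received JZL184 at 8 mg/kg or its vehicle (VEH) by daily intraperitoneal injection for 10 days, which gave ventricle samples of 3 CD JZL184, 3 CD VEH, 3 WT JZL184 and 2 WT VEH mice. The control samples are called untreated in one of the labels and vehicle in their titles. The comparisons ask whether the genotype, the drug, or the drug in one genotype as against the other changed these mRNAs.

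Arachidonate is stored in membrane phospholipids and is set free by cytosolic phospholipase A2, which Pla2g4a encodes. A further source is 2-AG, the endocannabinoid that monoacylglycerol lipase (Mgll) splits into glycerol and arachidonate, and JZL184 inhibits that lipase. Cyclooxygenases (Ptgs1 and Ptgs2) convert arachidonate to prostaglandin H2, from which separate synthases make prostaglandin E2 (Ptges and Ptges2), prostacyclin (Ptgis) and prostaglandin D2 (Ptgds). In the leukotriene branch, 5-lipoxygenase (Alox5) works with its activating protein FLAP (Alox5ap), and leukotriene C4 synthase (Ltc4s) adds glutathione to the product. Alox15 encodes a lipoxygenase that oxygenates arachidonate at other carbons. In the heart and its vessels, prostacyclin relaxes smooth muscle and restrains platelets, thromboxane does the reverse, and leukotrienes are made mainly by immune cells.

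The promoter sequences of both cyclooxygenases and of Ltc4s are shown because these genes include the more abundant and the less abundant cyclooxygenase and the enzyme with the greatest fold-changes of the 9 compared. They are the 250 bases before the RefSeq start site (GRCm38.p6), written 5′ to 3′ on the strand of the gene, with the letters GAGGAA (the core bound by PU.1-type factors of blood cells) and GGGCGG (the GC box) in capitals. They come from chr2:36230176-36230425 (Ptgs1, + strand), chr1:150099781-150100030 (Ptgs2, + strand) and chr11:50238533-50238782 (Ltc4s, - strand).
Ptgs1: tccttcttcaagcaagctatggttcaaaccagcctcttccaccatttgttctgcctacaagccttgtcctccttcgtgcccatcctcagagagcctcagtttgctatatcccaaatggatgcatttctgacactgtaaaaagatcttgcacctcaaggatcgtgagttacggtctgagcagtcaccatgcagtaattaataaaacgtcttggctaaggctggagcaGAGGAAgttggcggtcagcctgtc
Ptgs2: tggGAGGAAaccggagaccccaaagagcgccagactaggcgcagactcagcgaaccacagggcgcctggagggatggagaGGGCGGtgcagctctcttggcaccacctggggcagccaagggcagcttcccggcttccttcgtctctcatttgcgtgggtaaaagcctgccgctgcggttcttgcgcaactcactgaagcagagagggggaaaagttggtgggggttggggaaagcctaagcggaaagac
Ltc4s: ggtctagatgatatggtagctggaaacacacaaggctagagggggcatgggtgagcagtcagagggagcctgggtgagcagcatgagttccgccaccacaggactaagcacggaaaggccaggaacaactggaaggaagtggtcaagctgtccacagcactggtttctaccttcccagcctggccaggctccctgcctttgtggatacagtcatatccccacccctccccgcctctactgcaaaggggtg
Both strands were searched for these letters, for TATAAA (the TATA box) and for TGACGT (part of the cyclic AMP response element), and no pair of matches overlapped. Ptgs1 held GAGGAA 24 bases before its start. Ptgs2 held GGGCGG 170 bases and GAGGAA 247 bases before its start, and in Ltc4s none of the letters was found. Of the 32851 promoter windows of this length in the reference, 23.3% held GAGGAA, 32.7% GGGCGG, 12.4% TATAAA and 6.47% TGACGT. The GC content was 48.0% for Ptgs1, 61.6% for Ptgs2 and 57.6% for Ltc4s, against a median of 52.4% over all windows. Windows were matched for 7 of the 10 genes, not for Ptgis, Alox5ap and Alox15. Pla2g4a and Ptgs2 are neighbours on chromosome 1, 139 kb apart with 0 protein-coding genes between them.

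Depth was 69660232 to 92251443 counts per mouse and TMM factors were 0.92 to 1.09, so that 3 counts, set against the effective totals, corresponded to 0.0305 to 0.0433 CPM. The share of mitochondrial counts differed between the groups, at 39.4% to 41.2% in WT VEH, 45.0% to 46.6% in WT JZL184, 43.5% to 44.7% in CD VEH and 36.4% to 40.1% in CD JZL184. All 14 tested genes of the deleted interval, from Gtf2i to Fkbp6, were lower in the 6 CD mice than in any WT mouse, with a median log2 fold-change of -1.01 between the vehicle groups. Alox5ap is also on chromosome 5 (149264767 to 149288153) but outside that interval. The 6 cardiomyocyte markers summed to 23200 to 32700 CPM in each mouse, and none of them was at 0. In whole tissue, fewer cells of a type and less RNA per cell cannot be told apart.

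Levels of the enzymes covered a wide range when set per kilobase of their longest coding transcript. Ptgds was the most abundant, with a mean of 194 CPM per kb over the 11 mice and 142 to 260 in single mice. Ptges2 followed with 7.79 CPM per kb, then Alox5ap with 5.57 and Ptgis with 4.39. Ptges2 was above Alox5ap in 10 of the 11 mice, and in WT JZL184 mouse B it was below (6.89 against 8.79 CPM per kb). The ranges over mice of Alox5ap (3.63 to 8.79 CPM per kb) and Ptgis (3.13 to 7.40) overlapped, but Alox5ap was above Ptgis within each of the 11 mice. Ltc4s (2.65 CPM per kb) was above Ptgs1 (2.17) in 8 of the 11, so their order was not the same in all mice, and Pla2g4a was at 1.04 CPM per kb. Ptges (0.307) and Ptgs2 (0.150) were low, and the constitutive cyclooxygenase Ptgs1 was thus above the inducible Ptgs2 in every mouse, since its lowest value was 1.47 CPM per kb and the highest of Ptgs2 was 0.299. Alox15 was close to absent at 0.00756 CPM per kb.

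**Figure D1:**
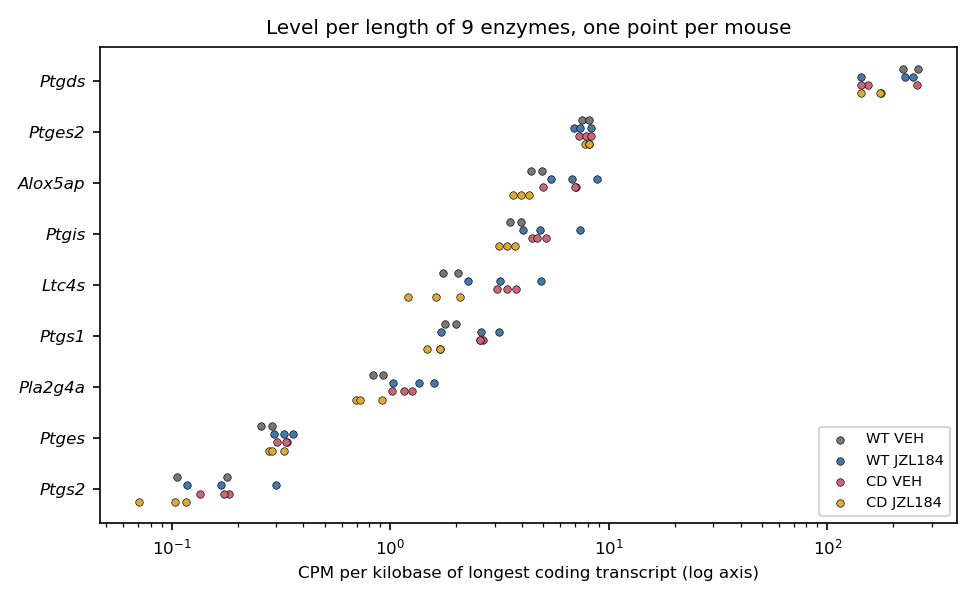
Level of 9 enzymes as CPM per kilobase of the longest coding transcript, on a logarithmic horizontal axis, with 1 point per mouse coloured by group. Ptgds stands apart from the other 8, and Ptgs2 lies below Ptgs1 in every mouse; Alox15 is left out because 5 mice had 0 counts.

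The first step, Pla2g4a (chromosome 1, 149829618 to 149961290), was raised by JZL184 in WT mice and lowered by it in CD mice. It was measured at 2.63 and 2.37 CPM in WT VEH mice C and D, then at 2.94, 4.50 and 3.88 CPM in the WT JZL184 mice A, B and D. In CD VEH mice A, C and E it was at 3.59, 2.89 and 3.31 CPM, and in CD JZL184 mice A, C and E at 1.99, 2.60 and 2.07 CPM. Both WT JZL184 and CD VEH mice were thus above every WT VEH mouse, and the CD JZL184 mice were below every CD VEH mouse but overlapped with WT VEH. JZL184 changed Pla2g4a by a log2 fold-change of 0.60 (SE 0.19, adjusted p = 0.0331) in WT and of -0.55 (SE 0.16, adjusted p = 0.0243) in CD mice. Under JZL184, CD mice were lower than WT mice by a log2 fold-change of -0.76 (SE 0.16, adjusted p = 0.00464). The difference of CD VEH from WT VEH, 0.39 (SE 0.19, adjusted p = 0.13), did not pass the test. The call in WT mice was lost without WT JZL184 mouse B or D or either WT VEH mouse, or when the model held just those groups (log2 fold-changes of 0.46 to 0.67), and the call in CD mice without mouse A or E of either CD group (-0.54 to -0.47).

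Of the cyclooxygenases, Ptgs1 (chromosome 2, 36230426 to 36252272) was lowest in the CD JZL184 mice. Its values were 5.75 and 5.08 CPM in WT VEH, 4.91, 8.98 and 7.45 CPM in WT JZL184, 7.62, 7.37 and 7.36 CPM in CD VEH and 4.21, 4.83 and 4.81 CPM in CD JZL184. Every CD JZL184 mouse was below every mouse of the other groups, and the CD VEH mice lay close together, above both WT VEH mice. The WT JZL184 mice were spread out, with mouse A below and mice B and D above WT VEH. JZL184 lowered Ptgs1 in CD mice by a log2 fold-change of -0.69 (SE 0.17, adjusted p = 0.0104), a call that was kept with any single mouse left out. In WT mice the change was 0.39 (SE 0.19, adjusted p = 0.133), which became 0.20 (adjusted p = 0.41) without WT JZL184 mouse B and passed at 0.61 (adjusted p = 0.00316) without WT JZL184 mouse A. For CD VEH against WT VEH it was 0.46 (SE 0.19, adjusted p = 0.0826). CD JZL184 was lower than WT JZL184 by -0.62 (SE 0.17, adjusted p = 0.0133), which did not pass without CD JZL184 mouse A (-0.56, adjusted p = 0.0513) or WT JZL184 mouse B (-0.42, adjusted p = 0.0501). Platelets are known for their cyclooxygenase 1, and the 6 platelet markers summed to 8.26 to 8.72 CPM in WT VEH, 9.96 to 17.6 in WT JZL184, 14.0 to 26.6 in CD VEH and 6.82 to 10.2 in CD JZL184. None of the 6 was at 0 in all mice. Pf4, the 1 tested marker, changed by 1.08 for CD VEH against WT VEH and by -0.85 for CD JZL184 against WT JZL184. With JZL184 it changed by 0.89 in WT and by -1.04 in CD mice (log2, all called). The sum of 26.6 CPM was that of CD VEH mouse A, against 14.0 in C and 17.6 in E. All 6 markers were highest in that mouse, with Ppbp at 4.63 CPM against 1.14 and 1.28 in C and E. The part of platelets in the result was not tested.

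Ptgs2, the inducible cyclooxygenase, was below the abundance needed for the test. It was at 0.795 and 0.471 CPM in WT VEH, 0.520, 1.33 and 0.748 CPM in WT JZL184, 0.817, 0.600 and 0.773 CPM in CD VEH and 0.315, 0.519 and 0.459 CPM in CD JZL184. The CD JZL184 mice were the lowest group apart from an overlap with 1 WT VEH mouse, and WT JZL184 mouse B was the highest. When all genes with counts were fitted (19080 genes), the log2 fold-change of CD JZL184 against WT JZL184 was -0.97 (SE 0.32, adjusted p = 0.0394) for Ptgs2. That call rested on single mice, since it did not pass without WT JZL184 mouse B (-0.54, adjusted p = 0.248) or without CD JZL184 mouse A (-0.80, adjusted p = 0.14) or E (-1.03, adjusted p = 0.0788). Its changes in the other comparisons, 0.23 for CD VEH against WT VEH, -0.75 for JZL184 in CD and 0.45 for JZL184 in WT mice, did not pass.

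The terminal prostaglandin synthases behaved in different ways. Ptgis, prostacyclin synthase (chromosome 2, 167191805 to 167240604), was at 7.44 and 8.32 CPM in WT VEH, 8.49, 15.6 and 10.2 CPM in WT JZL184, 9.34, 9.88 and 10.8 CPM in CD VEH and 6.59, 7.86 and 7.21 CPM in CD JZL184. The CD JZL184 mice were below every CD VEH and every WT JZL184 mouse, and WT JZL184 mouse B was far above the rest. CD JZL184 was lower than WT JZL184 by a log2 fold-change of -0.66 (SE 0.18, adjusted p = 0.0127), which became -0.37 (adjusted p = 0.0238) without WT JZL184 mouse B. The effects of JZL184 within genotypes did not pass the edgeR test, at -0.47 (SE 0.18, adjusted p = 0.0573) in CD and 0.53 (SE 0.20, adjusted p = 0.064) in WT mice. The change in WT mice became 0.25 (adjusted p = 0.159) without WT JZL184 mouse B and passed at 0.71 (adjusted p = 0.00914) without WT JZL184 mouse A. DESeq2 called both, with adjusted p-values of 0.0282 and 0.0263. Counting DESeq2, the fall in CD mice passed in 3 of 15 alternatives (log2 fold-changes of -0.54 to -0.41 over all 15). The rise in WT mice passed in 2 of 14.

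Ptges2, a membrane-associated prostaglandin E synthase (chromosome 2, 32395896 to 32405772), was nearly constant. WT VEH mice had a mean of 38.8 ± 2.04 CPM (SD, n = 2) and WT JZL184 mice of 37.5 ± 3.59 CPM (SD, n = 3). The mean was 39.0 ± 2.42 CPM (SD, n = 3) for CD VEH mice, and 39.8 ± 0.969 CPM (SD, n = 3) for CD JZL184 mice. All groups overlapped, log2 fold-changes lay between -0.05 and 0.08 with SE of 0.07 to 0.11, and no comparison passed. Ptges, the inducible synthase of the same product, was below the abundance needed for the test at 0.929 to 1.31 CPM. None of its changes passed when all genes were fitted, with log2 fold-changes of 0.26, -0.12, 0.26, -0.11 and -0.38 for CD VEH against WT VEH, JZL184 in CD, JZL184 in WT, CD JZL184 against WT JZL184 and the interaction.

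Ptgds, prostaglandin D synthase (chromosome 2, 25466709 to 25470046), varied widely between mice of the same group. It was at 200 and 234 CPM in WT VEH, 203, 222 and 128 CPM in WT JZL184, 138, 231 and 128 CPM in CD VEH and 159, 157 and 128 CPM in CD JZL184. CD VEH mouse C and WT JZL184 mouse D each stood apart from the other 2 mice of their group. CD VEH differed from WT VEH by a log2 fold-change of -0.39 (SE 0.25, adjusted p = 0.257), which became -0.71 (adjusted p = 0.0297) without CD VEH mouse C. No other change of Ptgds passed, and the sign of the JZL184 effect in CD mice (-0.16) turned to 0.16 without that mouse.

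**Figure D2:**
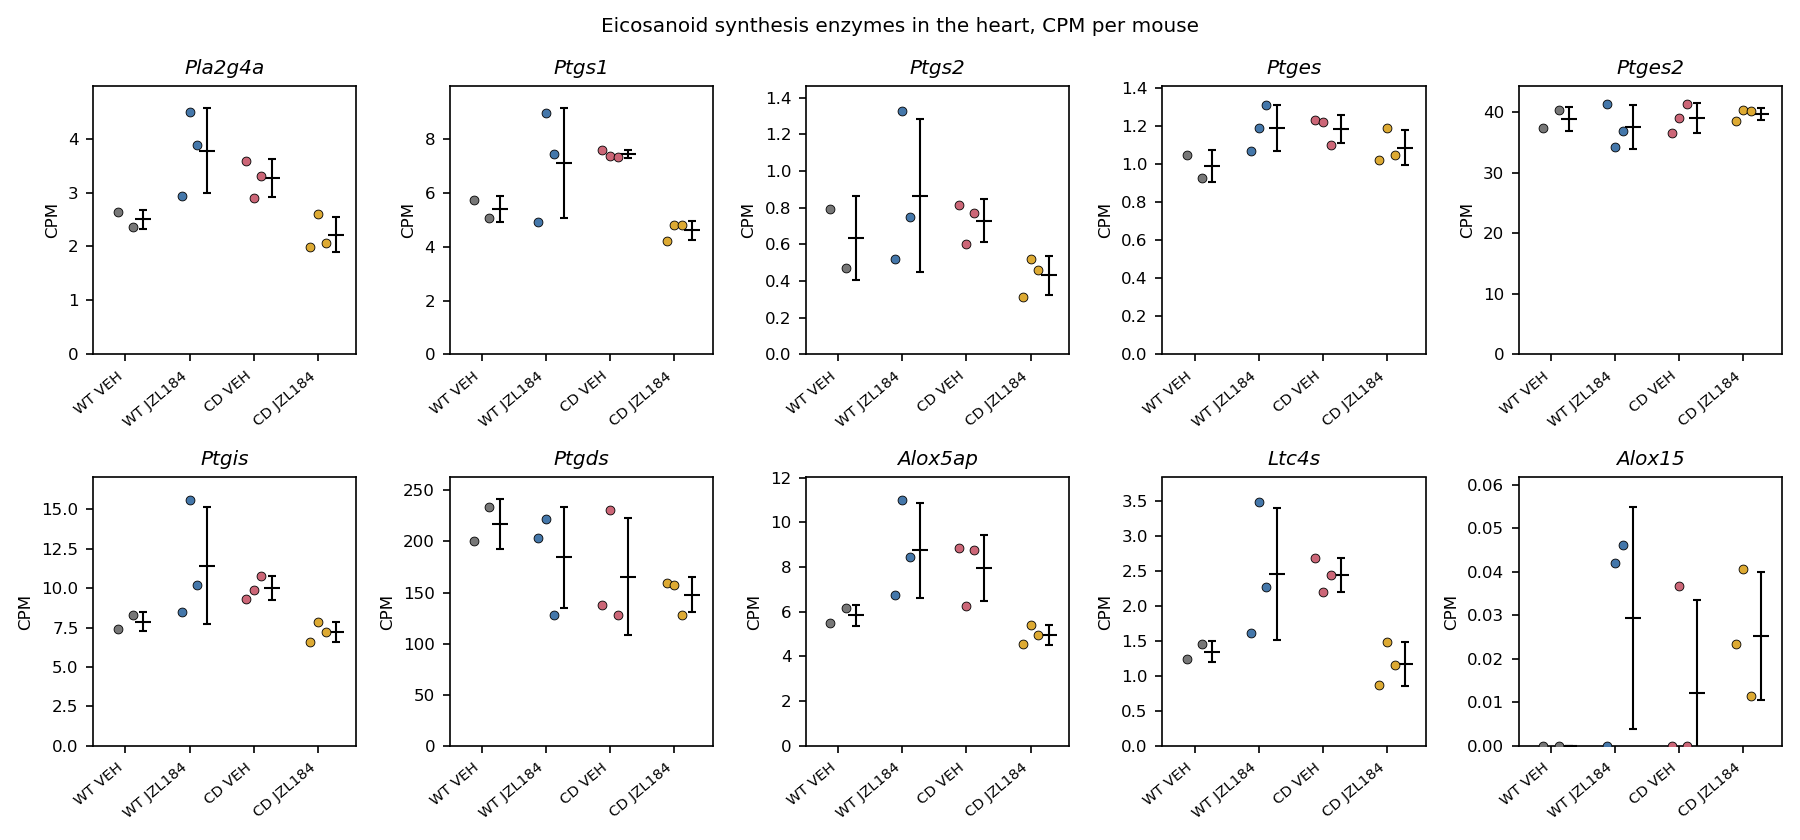
CPM of the 10 enzymes in each of the 11 mice, by group, on linear axes from 0. Points are mice and the bars beside them give mean ± SD (WT VEH has 2 mice, the others 3). For Pla2g4a, Ptgs1, Ptgis, Alox5ap and Ltc4s every CD JZL184 point is below every CD VEH point, while the groups overlap for Ptges2 and Ptgds.

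In the leukotriene branch, Alox5ap, which encodes FLAP, was raised by JZL184 in WT mice and lowered by it in CD mice. It was at 5.49 and 6.18 CPM in WT VEH, 6.76, 11 and 8.47 CPM in WT JZL184, 8.85, 6.27 and 8.77 CPM in CD VEH and 4.54, 5.40 and 4.95 CPM in CD JZL184. The CD JZL184 mice were below the 8 others, and all CD VEH and WT JZL184 mice were above both WT VEH mice. JZL184 raised Alox5ap in WT mice by a log2 fold-change of 0.58 (SE 0.19, adjusted p = 0.0426) and lowered it in CD mice by -0.68 (SE 0.17, adjusted p = 0.0124). CD JZL184 was lower than WT JZL184 by -0.81 (SE 0.17, adjusted p = 0.00419), and CD VEH differed from WT VEH by 0.45 (SE 0.19, adjusted p = 0.0974). The last difference became 0.59 (adjusted p = 0.0345) without CD VEH mouse C. The call in CD mice was lost without CD VEH mouse A or E (adjusted p of 0.0535 and 0.0533), and that in WT mice without WT JZL184 mouse B or D or either WT VEH mouse, with an offset for gene length, or when the model held just the compared groups (0.39 to 0.67).

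Ltc4s, which completes leukotriene C4, showed the same order of groups at a lower level. It was at 1.24 and 1.46 CPM in WT VEH, 1.62, 3.49 and 2.27 CPM in WT JZL184, 2.69, 2.20 and 2.45 CPM in CD VEH and 0.864, 1.49 and 1.16 CPM in CD JZL184. Every WT JZL184 and CD VEH mouse was above all WT VEH and CD JZL184 mice. With an average of 0.95 on the log2 CPM scale it was just under the filter, so its tests come from the model of all genes with counts. There, Ltc4s passed narrowly, and higher, in CD VEH against WT VEH (0.86, SE 0.27, adjusted p = 0.043) and with JZL184 in WT mice (0.85, SE 0.27, adjusted p = 0.0461). The first of these calls was lost without CD VEH mouse A or E or either WT VEH mouse (0.74 to 0.99, adjusted p of 0.0846 to 0.268). The second was lost without either WT VEH mouse (0.73 and 0.98, adjusted p = 0.273 and 0.141) or without WT JZL184 mouse D (0.91, adjusted p = 0.0621), and fell to 0.52 (adjusted p = 0.177) without mouse B. It fell with JZL184 in CD mice (-1.05, SE 0.24, adjusted p = 0.00796) and was lower in CD JZL184 than in WT JZL184 (-1.04, SE 0.24, adjusted p = 0.00616), and both calls were kept with any single mouse of those groups left out. In that model, 16.8%, 16.6%, 18.2% and 22.8% of all genes passed in these comparisons, in the order given. Alox15 had 17 counts over the 11 mice, with 0 in both WT VEH mice, where 3 counts, the level that a count of 0 still allows, were 0.0305 to 0.0433 CPM over the mice, and no fold-change is given.

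Exons of antisense genes overlap those of Ptgs1, Ptgis, Alox5ap and Ltc4s. None of these antisense genes was a row of the table, and whether the counting used strand is not given in the sources used here.

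Set against all genes, the members stood as follows. In CD VEH against WT VEH, 0 of the 6 tested members passed the edgeR test, while 15.0% of all tested genes were higher and 15.4% lower. At an unadjusted p under 0.05 there were 2 (Ptgs1 and Alox5ap, both higher), and DESeq2 called 0. The member log2 fold-changes had a median of 0.36, against 0.009 over all tested genes. When the model held just the compared groups, 3 members passed (Ptgs1, Ptgis and Ltc4s), all of them higher. The share of all genes was not counted for the unadjusted p, DESeq2 or that model, so these counts cannot be set against it.

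With JZL184 in WT mice, 2 of 6 members passed and were higher (Pla2g4a and Alox5ap) and 0 were lower, where 15.4% of all tested genes were higher and 14.0% lower. The median member change was 0.46 and that of all genes -0.003. In CD mice the drug lowered 3 of 6 (Pla2g4a, Ptgs1 and Alox5ap) and raised 0, where 17.0% of all tested genes were lower and 16.8% higher, with medians of -0.51 and -0.002. In CD JZL184 against WT JZL184, 4 of 6 were lower (the same 3 and Ptgis) and 0 higher, where 20.1% of all were lower and 18.2% higher, with medians of -0.64 and 0. These comparisons share groups of mice, so their counts are not independent. The counts were unstable for JZL184 in WT mice, where 0 members passed without WT JZL184 mouse B or D or either WT VEH mouse and 4 passed without WT JZL184 mouse A. In CD mice 1 passed without CD VEH mouse A or E, and 3 or 4 passed in CD JZL184 against WT JZL184 with any mouse left out.

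The effect of JZL184 differed between the genotypes for 4 of the 6 tested members, all with a lower value in CD mice, where 26.2% of all tested genes had a lower and 25.3% a higher JZL184 effect in CD than in WT mice. The difference of the log2 fold-changes (CD minus WT) was -1.26 for Alox5ap (SE 0.26, adjusted p = 0.00211) and -1.15 for Pla2g4a (SE 0.25, adjusted p = 0.00279). It was -1.08 for Ptgs1 (SE 0.25, adjusted p = 0.00428) and -1.0 for Ptgis (SE 0.27, adjusted p = 0.00848). Ptges2 (0.08, SE 0.11, adjusted p = 0.57) and Ptgds (0.07, SE 0.34, adjusted p = 0.871) did not pass. The 4 calls were kept in all 19 alternatives, with each mouse left out among them. In the model of all genes, in which 32.2% passed, the difference was -1.90 for Ltc4s (SE 0.37, adjusted p = 0.00108), called with any single mouse left out, and -1.20 for Ptgs2 (SE 0.48, adjusted p = 0.0703), which passed only without WT JZL184 mouse A (-1.46, adjusted p = 0.0181).

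**Figure D3:**
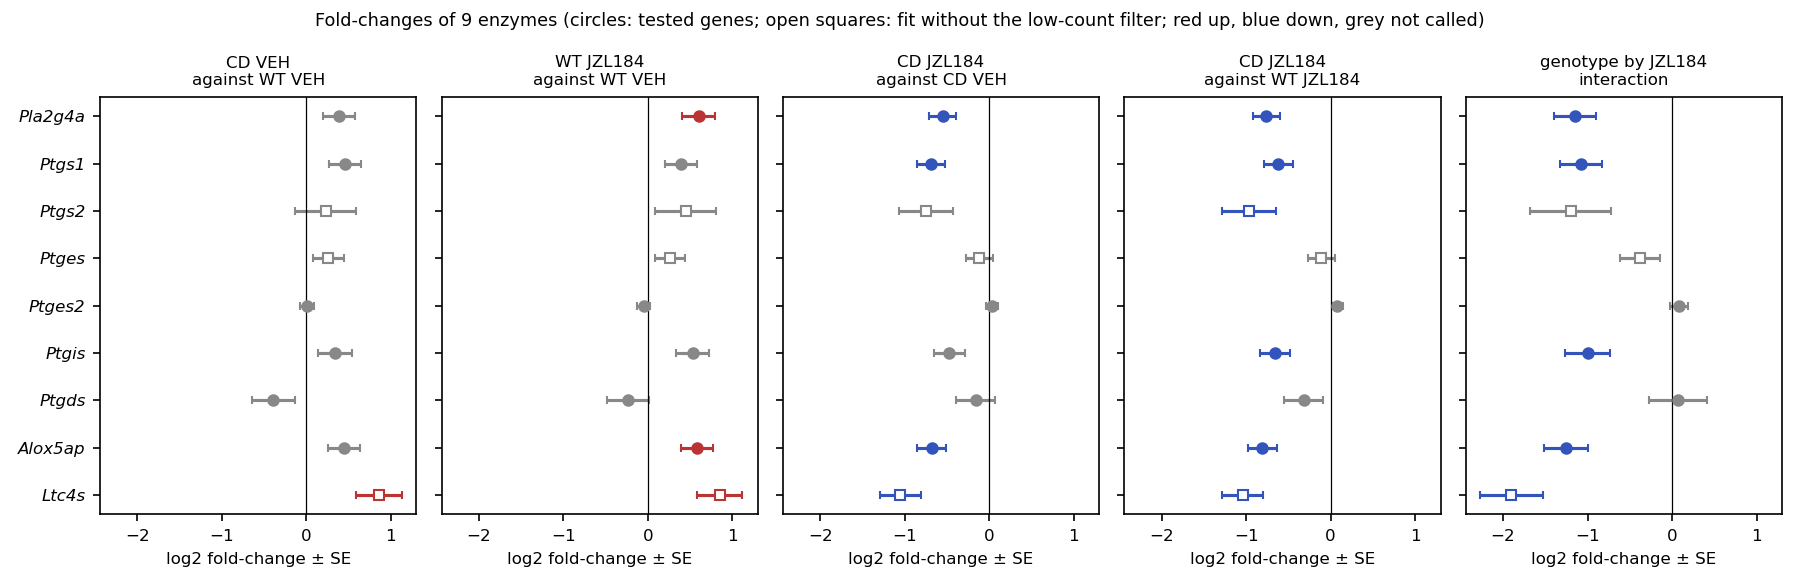
Log2 fold-changes of 9 enzymes with their standard errors in the 5 comparisons. Filled circles are tested genes, open squares are genes under the abundance filter fitted together with all genes, and colours mark an edgeR adjusted p under 0.05 (red higher, blue lower). Pla2g4a, Ptgs1, Ptgis, Alox5ap and Ltc4s lie right of 0 with JZL184 in WT mice and left of 0 with JZL184 in CD mice.

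Most macrophage, endothelial, fibroblast and smooth muscle markers moved in the same directions as Pla2g4a, Ptgs1, Ptgis, Alox5ap and Ltc4s. The 8 macrophage markers summed to 159 to 166 CPM in WT VEH, 205 to 341 in WT JZL184, 219 to 277 in CD VEH and 145 to 169 in CD JZL184. Of the 8, 7 were higher in CD VEH than in WT VEH, 8 rose with JZL184 in WT mice, 7 fell with it in CD mice and 7 were lower in CD JZL184 than in WT JZL184. The 6 endothelial markers summed to 547 to 554 CPM in WT VEH, 843 to 889 in WT JZL184, 715 to 799 in CD VEH and 540 to 628 in CD JZL184, and the 6 fibroblast markers to 553 to 582, 733 to 914, 679 to 778 and 519 to 572 CPM in the same order. Both lists changed as the macrophage list did, with 4 to 6 of their 6 members called in each comparison, but the fibroblast marker Col1a1 was called in none (log2 fold-changes of -0.11 to 0.16). Among the WT JZL184 mice, B had the highest and A the lowest macrophage, endothelial and fibroblast sum, the order also found for Pla2g4a, Ptgs1, Ptgis, Alox5ap and Ltc4s. The platelet, endocardial, T cell, B cell, neutrophil and eosinophil sums had that order too, but the smooth muscle sum did not, at 185 CPM in mouse A, 144 in B and 138 in D. Smooth muscle markers summed to 89.4 to 98.8, 138 to 185, 109 to 116 and 66.4 to 83.7 CPM, and 3 or 4 of their 4 tested members were called. Of the 6 cardiomyocyte markers, 2 were lower in CD VEH than in WT VEH and 3 fell with JZL184 in WT mice, while in CD mice 3 rose and 1 fell with it. No marker of these lists was at 0 in all mice, and their part in the results of the enzymes was not tested. The mitochondrial share of the counts, given above, was also higher in WT JZL184 and CD VEH than in WT VEH and CD JZL184. With mitochondrial genes left out of the model, every call of the 6 tested members was kept. That setting only removes those genes from the counts. It cannot show whether what sets the mitochondrial share has a part in the results, which was not tested.

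Most other lists were at low levels or gave few tested genes, and erythroid markers were the exception. The 7 mast cell markers summed to 1.14 to 3.83 CPM, the 6 neutrophil markers to 2.70 to 13.8, the 4 eosinophil markers to 0.026 to 0.117, and 0 members of these lists were abundant enough to be tested. T cell (0.343 to 0.982 CPM), B cell (1.27 to 3.61) and adipocyte markers (0.124 to 2.08) had 0 tested members too. Of the 5 erythroid markers, which reached 18800 CPM in CD VEH mouse A against 1420 to 5500 CPM in the 10 others, all were called lower with JZL184 in CD mice (median log2 fold-change -2.17) and in the interaction (-2.94). Without CD VEH mouse A the median for JZL184 in CD mice was -0.43 and 0 were called, 0 were called there without CD JZL184 mouse A or E and 1 without C, and 0 in the interaction without either WT VEH mouse. For endocardial (13.7 to 36.0 CPM), mesothelial (2.31 to 5.29), Schwann cell (6.07 to 8.87) and atrial markers (50.4 to 220), at most 1 gene of a list passed in any comparison.

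For the 4 members that passed, the tested genes with the most similar values over the 11 mice were found by the root mean square difference of centred log2 CPM, as a description. For Pla2g4a they were Dpt (0.085), which is also in the fibroblast list, Tmem106a (0.086) and Dusp6 (0.087), where Pla2g4a itself had an SD of 0.351. For Ptgs1 they were Tbxas1 (0.113), Car8 (0.119) and Dok2 (0.122) beside an SD of 0.347. For Alox5ap they included Ifi204 (0.074) and Entpd1 (0.091) beside an SD of 0.385, and for Ptgis Mxra7 (0.084), Fam114a1 (0.095) and Islr (0.096) beside an SD of 0.328.

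The other genes of these pathways were taken from 5 lists of 72 genes, of which 71 were in the table and 41 were tested. In CD VEH against WT VEH 9 were higher and 2 lower, where 15.0% of all tested genes were higher and 15.4% lower. With JZL184 in WT mice 11 were higher and 3 lower (15.4% and 14.0% of all), and in CD mice 3 and 9 (16.8% and 17.0%). For CD JZL184 against WT JZL184 the counts were 6 and 11 (18.2% and 20.1%). The median log2 fold-changes of the 41 were 0.09, 0.12, -0.03 and -0.02 in that order. With 1 mouse left out these counts moved from 11 to between 0 and 10, from 14 to between 3 and 19, from 12 to between 3 and 8 and from 17 to between 11 and 20. The lowest count for CD VEH against WT VEH, 0, was that without WT VEH mouse C.

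Upstream of the cyclooxygenases, 14 genes of arachidonate release and re-esterification were tested. In CD VEH against WT VEH 2 were called (1 higher, 1 lower), with JZL184 in WT mice 4 (2 and 2). With JZL184 in CD mice 2 were called (1 and 1), and in CD JZL184 against WT JZL184 6 (4 and 2). Higher and lower shares of all tested genes were 15.0% and 15.4%, 15.4% and 14.0%, 16.8% and 17.0%, and 18.2% and 20.1% in that order. Mgll, the target of JZL184, was at 101 and 123 CPM in WT VEH, 150, 198 and 178 CPM in WT JZL184, 148, 165 and 143 CPM in CD VEH and 104, 135 and 107 CPM in CD JZL184. Its mRNA was thus lower in both WT VEH and CD JZL184 mice than in the 6 others. The log2 fold-change was 0.44 for CD VEH against WT VEH (adjusted p = 0.033), 0.65 with JZL184 in WT (adjusted p = 0.00793), -0.40 with JZL184 in CD mice (adjusted p = 0.0278) and -0.61 for CD JZL184 against WT JZL184 (adjusted p = 0.00356). The first did not pass without any single mouse of its groups, the second without WT VEH mouse C (adjusted p = 0.0912) and the third without any single mouse of its groups but CD JZL184 mouse C, while the fourth passed in every alternative. Pla2g4e, a relative of Pla2g4a that makes N-acyl phospholipids, went the opposite way, lower in CD VEH than in WT VEH (-0.77, adjusted p = 0.0191) and with JZL184 in WT mice (-0.83, adjusted p = 0.0142). Both calls were lost without WT VEH mouse C, the first also without CD VEH mouse E and the second when the model held just its groups. The acyltransferase Mboat7, which puts arachidonate back into phosphatidylinositol, rose with JZL184 in CD mice (0.29, adjusted p = 0.0132), but not without CD VEH mouse E (adjusted p = 0.0584).

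Downstream, Tbxas1, thromboxane synthase, fell with JZL184 in CD mice (-0.49, adjusted p = 0.0284) and was lower in CD JZL184 than in WT JZL184 (-0.59, adjusted p = 0.0104). The first of these was lost without mouse A or E of either CD group and the second was kept in every alternative. Hpgd, which inactivates prostaglandins, was at 5.06 and 4.69 CPM in WT VEH, 7.79, 9.60 and 10.8 CPM in WT JZL184, 6.42, 6.07 and 7.40 CPM in CD VEH and 5.62, 4.98 and 5.36 CPM in CD JZL184. All WT JZL184 mice were above the 8 others. Hpgd was higher in CD VEH than in WT VEH (0.44, adjusted p = 0.0298), a call lost in 4 of 14 alternatives. It rose with JZL184 in WT mice (0.95, adjusted p = 0.002), which held with each mouse left out, and was lower in CD JZL184 than in WT JZL184 (-0.82, adjusted p = 0.000953). Ptgr1, a prostaglandin reductase, fell with JZL184 in CD mice (-0.55, adjusted p = 0.0146), and Abcc4, which exports prostaglandins, rose with it in WT mice (0.36, adjusted p = 0.013). Ptgr1 did not pass without CD JZL184 mouse C or CD VEH mouse E, nor Abcc4 without WT VEH mouse C.

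Of the 4 tested prostanoid receptors, 3 were higher in CD VEH than in WT VEH and the same 3 rose with JZL184 in WT mice. Among all tested genes 15.0% were higher in the first comparison and 15.4% in the second. Tbxa2r, the thromboxane receptor, was at 1.07 and 1.15 CPM in WT VEH, 2.14, 3.28 and 1.93 CPM in WT JZL184, 2.58, 2.63 and 2.48 CPM in CD VEH and 1.47, 2.08 and 1.57 CPM in CD JZL184. Both WT VEH mice were below the 9 others. Its log2 fold-change was 1.21 for CD VEH against WT VEH (adjusted p = 0.00529), 1.14 with JZL184 in WT (adjusted p = 0.00674) and -0.58 with JZL184 in CD mice (adjusted p = 0.0365). Ptger4, a receptor for prostaglandin E2, changed by 0.77, 0.75 and -0.51 in these comparisons (adjusted p = 0.00436, 0.00456 and 0.00944), and Ptgir, the prostacyclin receptor, by 0.60 and 0.73 in the first and second (adjusted p = 0.0211 and 0.00977). The changes of Tbxa2r and Ptger4 against WT VEH did not pass without WT VEH mouse C, and those of Ptgir not without WT VEH mouse D or, in CD VEH, without WT VEH mouse C or CD VEH mouse A or E. The fall of Tbxa2r in CD mice was lost without any single mouse but CD JZL184 mouse C, and that of Ptger4 was kept in every alternative.

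Alox5, the lipoxygenase that works with FLAP, followed the genotype and not the order seen for Alox5ap. It was at 10.4 and 12.8 CPM in WT VEH, 7.76, 8.88 and 11.5 CPM in WT JZL184, 14.6, 16.7 and 17.4 CPM in CD VEH and 18.9, 22.2 and 20.3 CPM in CD JZL184. The 6 CD mice were above the 5 WT mice, and the CD JZL184 mice were the highest of all. It was higher in CD JZL184 than in WT JZL184 by a log2 fold-change of 1.12 (SE 0.13, adjusted p = 0.000412), which passed in every alternative, and in CD VEH than in WT VEH by 0.48 (SE 0.15, adjusted p = 0.0322), which did not pass without either WT VEH mouse or without CD VEH mouse C or E. JZL184 changed it by 0.34 in CD (adjusted p = 0.0658) and by -0.30 in WT mice (adjusted p = 0.146), neither past the test. The difference between these effects did pass the interaction test of edgeR (0.64, SE 0.20, adjusted p = 0.0188), and was lost in 1 of 19 alternatives. In the same branch, Cysltr1, a receptor for the products of Ltc4s, rose with JZL184 in WT (0.95, adjusted p = 0.00643), fell with it in CD mice (-0.53, adjusted p = 0.0331) and was lower in CD JZL184 than in WT JZL184 (-1.04, adjusted p = 0.00145). Ggt5 and Dpep1, which trim leukotriene C4 to D4 and E4, changed in the same directions, at 0.42 and 0.53 with JZL184 in WT and -0.36 and -0.48 in CD mice. The changes of Cysltr1, Ggt5 and Dpep1 between the JZL184 groups held in every alternative. In WT mice Cysltr1 did not pass without WT VEH mouse D, and Ggt5 and Dpep1 not without WT JZL184 mouse B or either WT VEH mouse, or when the model held just those groups. In CD mice Cysltr1 kept its call only without CD VEH mouse C, Dpep1 only without CD JZL184 mouse C or CD VEH mouse E, and Ggt5 only without CD JZL184 mouse E, among the mice of those groups, and Cysltr1 also lost it with an offset for GC content.

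Both epoxide hydrolases of the cytochrome P450 branch changed, in opposite directions. Ephx2, the soluble hydrolase that inactivates epoxyeicosatrienoic acids, was at 198 and 220 CPM in WT VEH, 164, 170 and 169 CPM in WT JZL184, 158, 190 and 161 CPM in CD VEH and 224, 235 and 210 CPM in CD JZL184. Mice of WT VEH and CD JZL184 were thus above all others. Its log2 fold-change was 0.40 with JZL184 in CD mice (adjusted p = 0.00495), which held with each mouse left out, and -0.32 with JZL184 in WT mice (adjusted p = 0.0209). The microsomal Ephx1 changed by -0.44 in CD (adjusted p = 0.0301) and by 0.81 in WT mice (adjusted p = 0.00581). In WT mice both calls were lost without WT VEH mouse C, and that of Ephx2 also without WT VEH mouse D or when the model held just those groups. In CD mice the call of Ephx1 was kept only without CD VEH mouse C among the mice of those groups. CD JZL184 differed from WT JZL184 by 0.41 for Ephx2 (adjusted p = 0.0028) and -0.61 for Ephx1 (adjusted p = 0.00612), in every alternative. CD VEH differed from WT VEH by -0.30 for Ephx2 (adjusted p = 0.0255) and 0.64 for Ephx1 (adjusted p = 0.0134). Of 14 alternatives, these calls were lost in 4 and in 2.

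**Figure D4:**
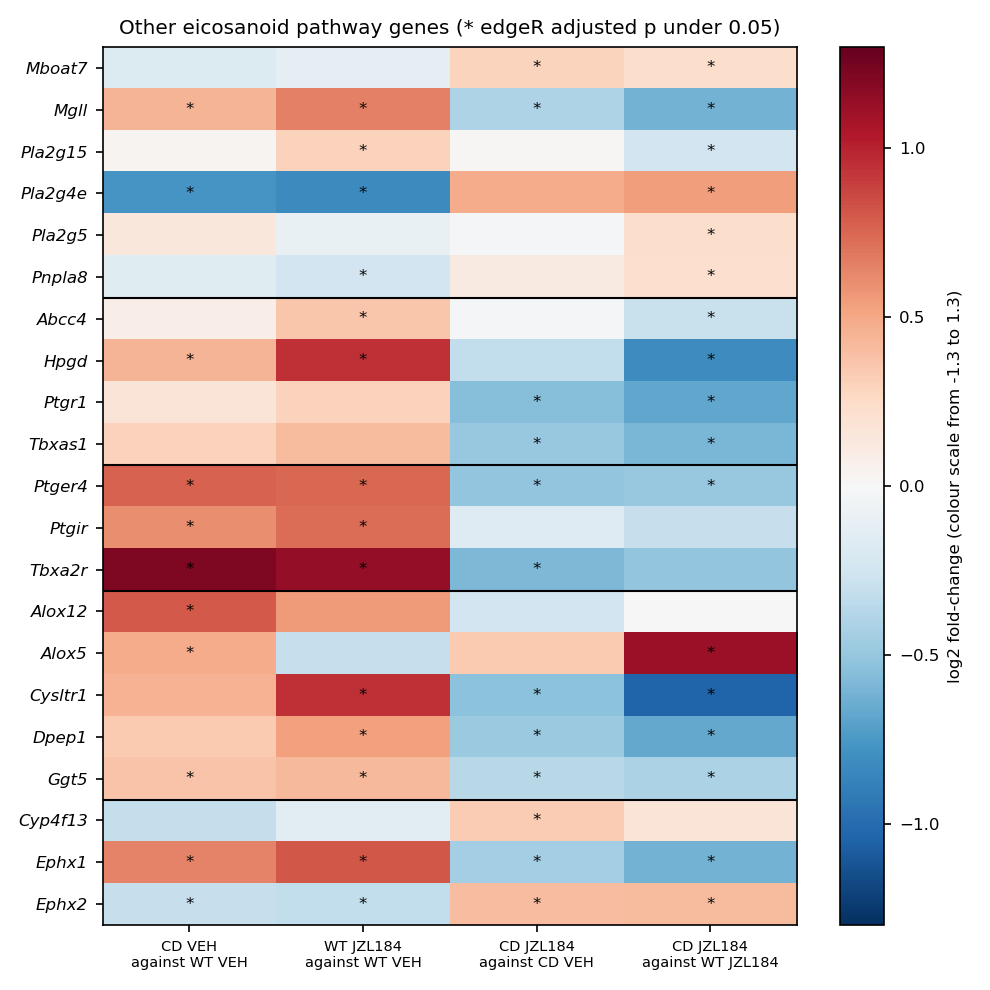
Log2 fold-changes of the other pathway genes that passed in at least 1 of 4 comparisons, on a colour scale (red higher, blue lower), with an asterisk for an edgeR adjusted p under 0.05. Lines separate, from the top, arachidonate release, prostanoid synthesis and breakdown, prostanoid receptors, lipoxygenase and leukotriene genes, and the cytochrome P450 branch. Mgll, Hpgd, Cysltr1 and Ephx1 are red with JZL184 in WT and blue with it in CD mice, and Ephx2 and Pla2g4e are the reverse, though for Hpgd and Pla2g4e the change in CD mice did not pass.

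**Figure D5:**
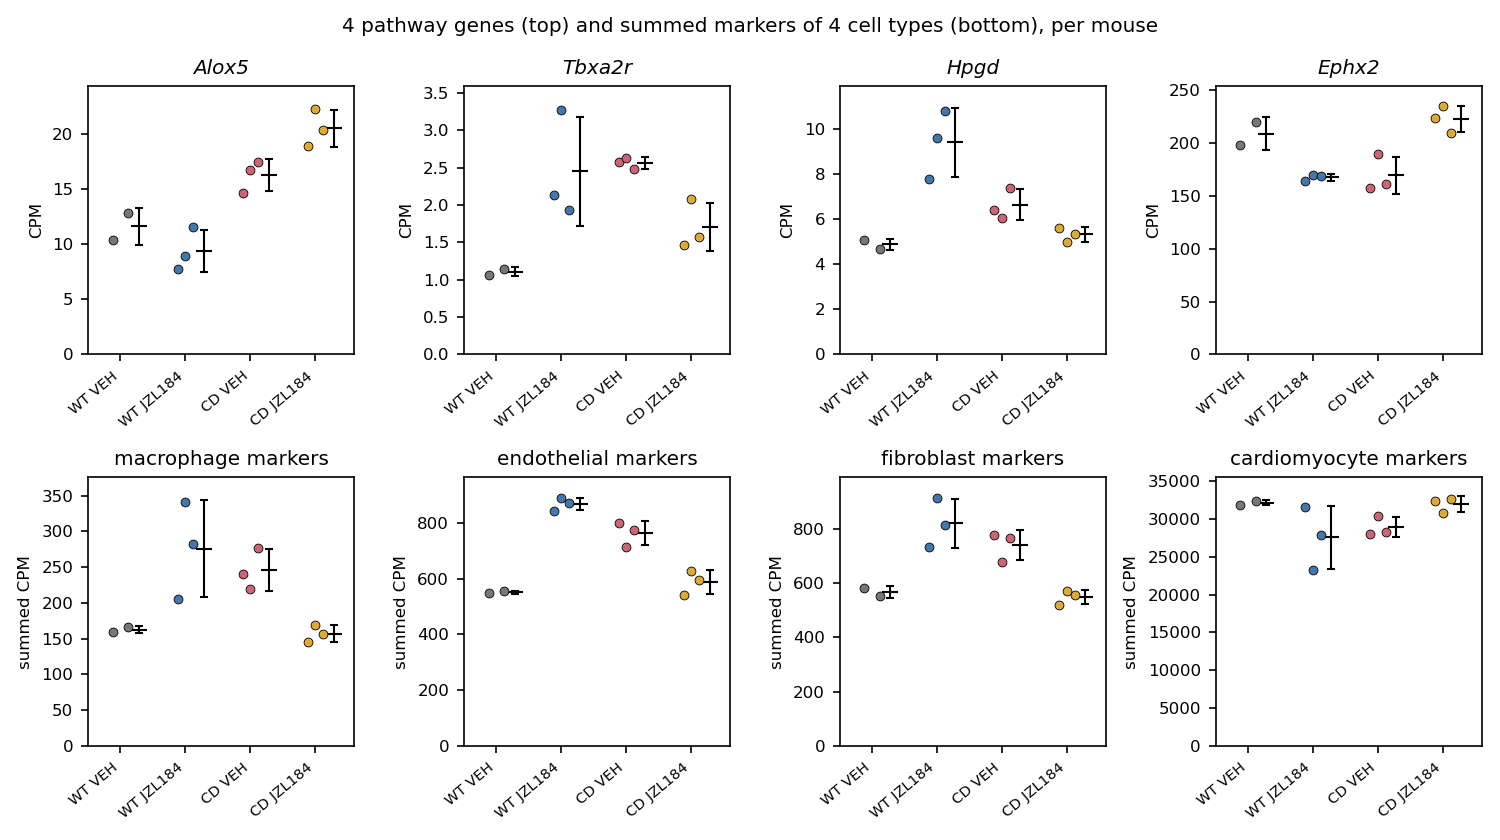
CPM of Alox5, Tbxa2r, Hpgd and Ephx2 (top) and summed CPM of the macrophage, endothelial, fibroblast and cardiomyocyte markers (bottom) in each mouse, by group, with mean ± SD beside the points (n = 2 for WT VEH, n = 3 for the others). All CD mice are above all WT mice for Alox5, while the macrophage, endothelial and fibroblast sums are higher in WT JZL184 and CD VEH than in WT VEH.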

How the data were processed

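RNA of 11 mouse hearts was sequenced, and the authors deposited 1 table of estimated counts. It holds genes as rows and mice as columns, and was produced by Salmon 0.7.2 (submitters' processing notes) on Ensembl release 85 of GRCm38 and tximport, without normalization. Columns were assigned to 4 groups by the group in their name. Total counts were 69660232 to 92251443 per mouse, and no pair of replicates agreed within sampling noise (chi-square per gene of 18.1 to 97.8). The labels say no more of the replicates than that they are separate samples, so p-values measure the spread between these samples.

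Counts were rounded and tested with the quasi-likelihood test of edgeR 4.0.16 (R 4.3.3, TMM factors, 11319 of 22608 genes at a mean log2 CPM of 1 or more, all groups in 1 model, common biological coefficient of variation 9.13%). A gene was called at a Benjamini-Hochberg adjusted p under 0.05 over all tested genes. All adjusted p-values are from this test unless DESeq2 1.42.0 is named. SE was derived from the F statistic. Symbols, positions and lengths came from GENCODE mouse release 21 (22315 genes matched, 16147 with the same version), which holds the same GRCm38 build, and promoters from RefSeq. The lowest level that depth can show was set at 3 counts, and such floors cover counting error only. The members, pathway lists and marker lists were chosen with earlier results of these data known. All members were described, and pathway genes that passed in at least 1 comparison, Mgll and, for each member that passed, the 3 most similar genes could be named. Not all of them are, and 1 is not reported here.

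Alternatives were DESeq2, other scaling (RLE and upper quartile), no filter, at least 10 counts in every mouse, no mitochondrial genes, only the compared groups, offsets for gene length or GC content (loess span 0.5) and each mouse left out. Leaving out each mouse in the model without a filter (Ptgs2, Ptges and Ltc4s) and for the erythroid markers was added after seeing the data. The steps were also run on simulated counts, with the same spread for all genes and changes in CD VEH only. Such counts cannot show how calls that rest on single mice behave.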

Additional observations from a re-analysis of the deposited data

Results flagged for a closer look

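The log2 effect of JZL184 differed between CD and WT mice for 4 of 6 tested members and 21 of 41 other pathway genes. Calls were made by the interaction test of edgeR at an adjusted p under 0.05. In CD mice the effect was lower for the 4 members, and lower for 14 and higher for 7 pathway genes. Among all tested genes 26.2% had a lower and 25.3% a higher effect in CD mice, so calls in either direction were common there too. The values that follow are the log2 fold-change in CD minus that in WT mice. For the 4 members, they were Pla2g4a -1.15, Ptgs1 -1.08, Ptgis -1.0 and Alox5ap -1.26. For genes of arachidonate release, they were Pla2g4e 1.31, Pnpla8 0.38, Mboat7 0.41 and Mgll -1.05. For prostanoid synthases, breakdown and transport, they were Tbxas1 -0.90, Hpgd -1.26, Ptgr1 -0.85, Ptgr2 0.43 and Abcc4 -0.39. For prostanoid receptors, they were Ptger4 -1.26, Ptgir -0.90 and Tbxa2r -1.72. For lipoxygenase and leukotriene genes, they were Alox5 0.64, Lta4h -0.24, Ggt5 -0.78, Dpep1 -1.01 and Cysltr1 -1.48. For the cytochrome P450 branch, they were Cyp2j6 -0.43, Cyp4f13 0.48, Ephx1 -1.25 and Ephx2 0.72. The direction was negative for 14 of the 21 pathway genes, and positive for the rest. The weakest calls were those of Lta4h, lost in 6 of 19 alternatives (as low as -0.09, adjusted p = 0.324, with an offset for gene length), Cyp4f13, lost in 7 (adjusted p up to 0.121), and Ptgr2, lost in 4 (up to 0.0706). Alox5 (adjusted p = 0.11) and Cyp2j6 (adjusted p = 0.0775) did not pass without WT VEH mouse D, nor Abcc4 (adjusted p = 0.0887) without WT VEH mouse C. The other 15 passed in every alternative that tested them.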

How the results depend on the processing

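Over 30 member fold-changes and 462 alternatives, 421 kept their direction and their side of the threshold, 19 no longer passed, 10 newly passed and 12 changed sign. No member fold-change that was called in the report changed sign. For CD VEH against WT VEH, where 0 members passed, 1 passed with no filter, with at least 10 counts in every mouse and without mitochondrial genes (Ltc4s, which these settings admit to the test), 3 with only the compared groups, and 0 to 2 with 1 mouse left out. For JZL184 in CD mice, 1 to 3 members passed with 1 mouse left out, against 3. For JZL184 in WT mice, 0 passed with only the compared groups, 1 with an offset for gene length and 0 to 4 with 1 mouse left out, against 2. Pathway genes called with 1 mouse left out ranged from 0 to 10 (against 11) for CD VEH against WT VEH, from 3 to 8 (against 12) for JZL184 in CD mice, from 3 to 19 (against 14) for JZL184 in WT mice, where only the compared groups gave 7, and from 11 to 20 (against 17) for CD JZL184 against WT JZL184, and from 16 to 22 (against 21) for the interaction. Apart from what the settings themselves change, the cause was not tested. The sign changed only in comparisons in which the gene was not called. For Ptges2 it changed in CD VEH against WT VEH (0.01) with the offsets for gene length and GC content (-0.05 each) and from -0.05 to 0.06 with 1 mouse left out, for JZL184 in CD mice (0.03) from -0.01 to 0.08, and in WT mice (-0.05) from -0.12 to 0.01. For Ptgds it changed for JZL184 in CD mice (-0.16) from -0.31 to 0.16 and for the interaction (0.07) from -0.13 to 0.39. For Ptgs2, in the model of all genes, it changed in CD VEH against WT VEH (0.23), from -0.11 without WT VEH mouse D to 0.63 without WT VEH mouse C. No paired analysis was possible because the columns carry letters that no label explains. WT VEH had 2 mice, so that leaving out 1 of them leaves a single mouse assumed to vary like the other groups. At this depth Alox15 could not be compared, since 3 counts correspond, with the TMM factors, to 0.0305 to 0.0433 CPM.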
